A study of Saccharomyces cerevisiae with 17 samples.

Results

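The genes described here encode the enzymes with which budding yeast makes amino acids, together with GCN4, the transcription factor that drives most of them. They are 45 of the 5656 genes of the array table. They were listed by name, with earlier results of these data known, and the rule sets no threshold on a change: GCN4 and the listed synthesis genes of arginine (5), histidine (5), the branched-chain amino acids (9), lysine (7), the aromatic amino acids (8), asparagine (2), serine (3) and homoserine and threonine (5), each read by the probe set with the highest mean. All samples came from the haploid laboratory strain CEN.PK113-7D (MATa MAL2-8C SUC2), grown without oxygen in chemostats that were limited by glucose and held at a dilution rate of 0.03 per hour. A chemostat fixes the specific growth rate, so temperature could be varied without a change in the mean growth rate that the feed imposes. The 6 cycle groups came from cultures under a 24-h sine of temperature between 30 and 12 °C: 30 °C at hour 0, 21 °C while the temperature fell (hour 6), 14.6 °C (hour 9), 12 °C (hour 12), 21 °C while it rose (hour 18) and 27.4 °C (hour 21). The other 2 groups were cultures at a steady state at a constant 12 °C and a constant 30 °C. Each group had 2 arrays, apart from an extra array at 27.4 °C that was left out, because the labels mention an analytical duplicate at that point without saying which array it is. The constant groups were independent cultures, while all cycle arrays came from the same 2 cultures. The labels tie no cycle array to a culture, so p-values within the cycle treat arrays as independent that are not. The chemostats in the cycle had been at a constant 30 °C before the cycles began, and samples came from a late cycle.

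In Saccharomyces cerevisiae, starvation for any of many amino acids activates the kinase Gcn2, which phosphorylates the initiation factor eIF2. Translation of the GCN4 message then increases, and the Gcn4 protein switches on synthesis genes of many pathways at once, the response called general amino acid control. Single pathways have regulators of their own beside it, such as Leu3 for leucine, Lys14 for lysine and the ArgR complex for arginine, and several first steps exist as a pair of isoenzymes. The arrays read messenger RNA and carry no information on translation or protein.

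The values are signals of Affymetrix Yeast Genome S98 probe sets on a linear scale, and log2 changes were tested with limma over all genes with Benjamini-Hochberg adjustment. A gene passed at an adjusted p under 0.05. All 45 genes lay above the background of control probe sets (a signal of 13.9) on all 16 arrays, and signals are compared only within a gene, because probe sets differ in brightness. Changes are given as log2 changes with their SE. They are relative to the other RNA on an array, and less message per cell cannot be told apart from fewer cells that carry it. Correlations between the arrays of a group, across genes, were 0.956 to 0.984. Markers of the labelled mating type were bright on all 16 arrays, MFA1 at 3589 to 10398 and STE2 at 403 to 1067. Of the MATalpha genes, MF(ALPHA)2 was above background on 6 of the 16 arrays, at 8.4 to 27.7. STE3 (34.9 to 113), SAG1 (45.5 to 142) and MF(ALPHA)1 (192 to 2649) were above it on all 16, and MF(ALPHA)1 was higher at constant 12 °C than at constant 30 °C (3.51 ± 0.24 SE, adjusted p = 2.94e-06); any part of this in the changes described here was not tested.

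Between the constant cultures most of the changes were rises in the cold, with 4 of 8 aromatic genes and 3 of 7 lysine genes among them. Between the coldest and the warmest point of the cycle most were falls, with 4 of 5 arginine genes and 2 of 5 histidine genes among them and no lysine or aromatic gene. Of these histidine genes HIS3 is uncertain, because its 2 probe sets disagreed. At constant 12 °C against constant 30 °C, 11 of the 45 genes rose and 2 fell, against a background of 22.2% of all genes called (9.97% higher and 12.2% lower). The median log2 change was 0.48 for the 45 genes and -0.01 for all genes. At 12 °C against 30 °C in the cycle, 3 rose and 11 fell, against 32.8% of all genes called (16.5% higher and 16.3% lower), with medians of -0.31 and 0.05. The scaling of the arrays bears on the split: quantile normalization gave 7 rises and 4 falls between the constant cultures, and centring each array on its median gave 14 and 0, and moved all changes of that comparison by 0.12 in log2. In the cycle the same alternatives gave 2 and 12, and 2 and 13. Single arrays bear on the counts too: between the constant cultures 3 genes passed without constant 12 °C array 1, 7 without constant 12 °C array 2, 1 without constant 30 °C array 1 and 6 without constant 30 °C array 2, and in the cycle 9 passed without cycle 12 °C array 2. With only the compared groups in the fit 7 and 6 passed. The limits given with single calls below do not name this fit in every case.

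**Figure D1:**
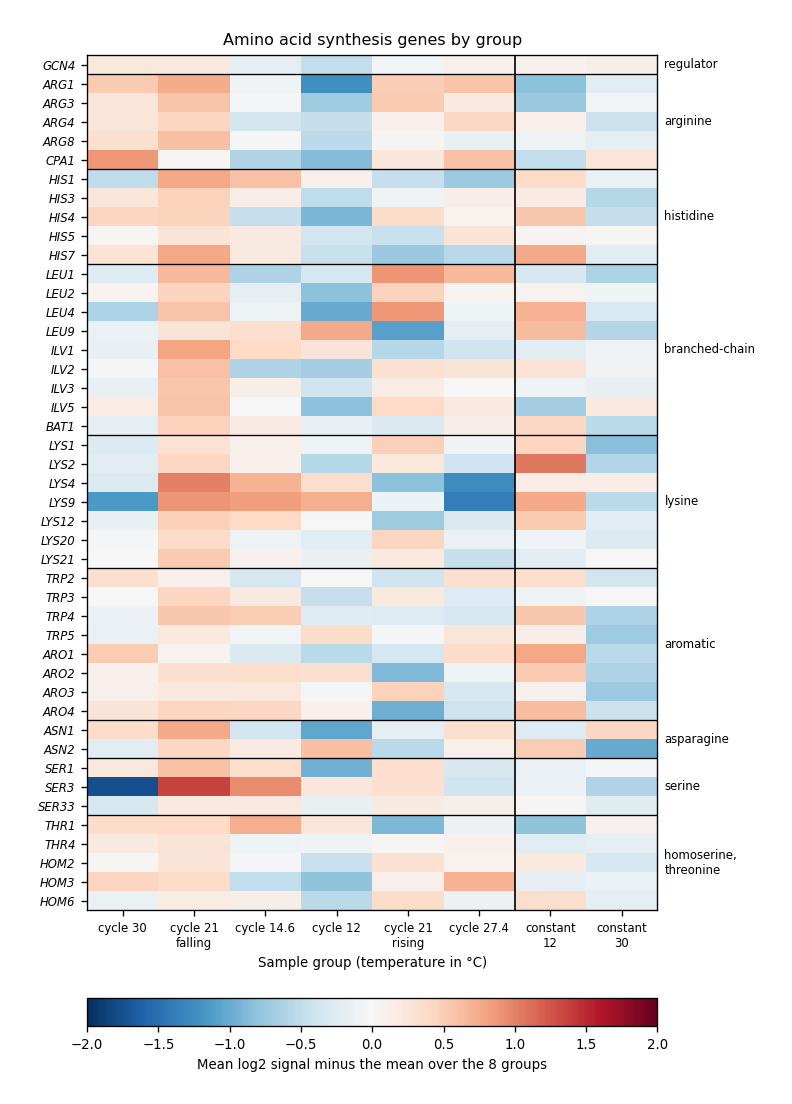
Heat map of the 45 genes, in rows by pathway, over the 6 cycle points in the order of the cycle and the constant 12 and 30 °C cultures, in columns. Colour is the mean log2 signal of 2 arrays minus the gene's mean over the 8 groups, red above and blue below; the column of falling 21 °C is mostly red, the arginine rows are blue at cycle 12 °C, and SER3 is darkest blue at cycle 30 °C.

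GCN4 itself fell at cycle 12 °C. Its signal over the cycle was 4967 and 5751 at 30 °C, 5302 and 5402 at 21 °C falling, 4082 and 4053 at 14.6 °C, 3925 and 2741 at 12 °C, 4378 and 4501 at 21 °C rising and 5024 and 4915 at 27.4 °C. It read 4997 and 4776 at constant 12 °C, against 4961 and 5043 at constant 30 °C. Both arrays at cycle 12 °C lay below all other arrays, whereas the constant groups lay close together. The change passed in the cycle (-0.70 ± 0.20 SE, adjusted p = 0.0175) and did not pass between the constant cultures (-0.03 ± 0.20 SE, adjusted p = 0.927). The difference of these effects did not pass (-0.67 ± 0.28 SE, adjusted p = 0.139). The GCN4 call in the cycle did not hold without cycle 30 °C array 2 (-0.60) or cycle 12 °C array 2 (-0.45). Nor did it hold in limma with only the compared groups in the fit (-0.70, adjusted p = 0.172). The F test over all cycle points, described further on, did not pass for GCN4 either (adjusted p = 0.0541). At cycle 12 °C against constant 12 °C GCN4 was lower by a change that did not pass (-0.57 ± 0.20 SE, adjusted p = 0.0634) and that passed without cycle 12 °C array 1 (-0.83, adjusted p = 0.0316).

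The genes that control GCN4 are described by a list of 14. Between the constant cultures 1 was higher in the cold and 2 were lower, near the 22.2% of all genes called: GCD11, which encodes the gamma subunit of eIF2, changed by 1.10, SUI2, its alpha subunit and the target of Gcn2, by -1.10, and GCD2, a subunit of the exchange factor eIF2B, by -1.0 in log2. In the cycle 4 were higher at 12 °C and 2 were lower, against 32.8% of all genes called. GCN20, a factor that Gcn2 needs for its activation, rose (1.51 ± 0.30 SE, adjusted p = 0.00226), as did GCN3, the regulatory subunit of eIF2B (0.88 ± 0.31 SE, adjusted p = 0.0465). PCL5, a cyclin, and PHO85, its kinase, which mark the Gcn4 protein for degradation, fell (-1.21 and -1.17). PCL5 is itself known as a target of Gcn4, and its cold effect was more negative in the cycle than between the constant cultures (-1.55 ± 0.37 SE, adjusted p = 0.0175). SUI2 differed the other way (1.69 ± 0.36 SE, adjusted p = 0.011). At rising against falling 21 °C, 8 of the 14 fell and 1 rose, against 33.9% of all genes called (18.7% lower), with GCD2 at -1.61, GCD11 at -1.35 and PCL5 at 1.03.

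Genes of the arginine pathway fell in the cold within the cycle. Of its 5 genes, 4 fell and none rose at 12 °C against 30 °C, against 32.8% of all genes called (16.3% lower). The pathway's median log2 change was -0.96, against 0.05 over all genes. ARG1, argininosuccinate synthetase, had signals of 3145 and 3218 at 30 °C, 3443 and 3951 at 21 °C falling, 1986 and 2248 at 14.6 °C, 932 and 963 at 12 °C, 3015 and 3189 at 21 °C rising and 3035 and 3536 at 27.4 °C. CPA1, the small subunit of the arginine-specific carbamoyl phosphate synthetase, had 3680.1 and 4127 at 30 °C, 1981 and 2419 at 21 °C falling, 1387 and 1416 at 14.6 °C, 1239 and 1092 at 12 °C, 2387 and 2614 at 21 °C rising and 2932 and 3498 at 27.4 °C. Both genes were lowest at 12 °C with no overlap with any other cycle point, and ARG1 was 3.36-fold lower at 12 °C than at 30 °C (-1.75 ± 0.22 SE, adjusted p = 0.000147). The fall of CPA1 was 3.35-fold (-1.74 ± 0.21 SE, adjusted p = 8.77e-05). These calls of ARG1 and CPA1 held under each of the 14 alternatives tried. CPA1 was below its level at cycle 30 °C already at falling 21 °C (-0.83 ± 0.21 SE, adjusted p = 0.0246) and at 14.6 °C (-1.48 ± 0.21 SE, adjusted p = 0.000483), and still at rising 21 °C (-0.64 ± 0.21 SE, adjusted p = 0.044). The call at 14.6 °C did not hold with only the compared groups in the fit (adjusted p = 0.0548). ARG1 did not pass at falling 21 °C (0.21), at 14.6 °C (-0.59) or at rising 21 °C (-0.04). The call of CPA1 at falling 21 °C did not hold without any 1 of the 4 arrays compared (-0.98 to -0.69), and that at rising 21 °C did not hold without any 1 of the 4 arrays compared (-0.72 to -0.56), nor with arrays centred on their medians (-0.58) or with dim genes removed (-0.64).

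ARG3, ornithine carbamoyltransferase, read 297 and 304 at cycle 12 °C, against 523 and 650.1 at cycle 30 °C (-0.96 ± 0.25 SE, adjusted p = 0.0131). ARG4, argininosuccinate lyase, read 1463 and 1487 at cycle 12 °C, against 2398 and 2447 at cycle 30 °C (-0.72 ± 0.23 SE, adjusted p = 0.0316). Neither gene's arrays overlapped between these points, as for 61.5% of all genes. The fifth gene, ARG8, acetylornithine aminotransferase, changed by -0.84 and did not pass (adjusted p = 0.052). The ARG3 call did not hold without cycle 30 °C array 2 (-0.80), cycle 12 °C array 1 (-0.94) or cycle 12 °C array 2 (-0.97). The ARG4 call did not hold without any 1 of the 4 arrays compared (-0.73 to -0.70). Between the constant cultures only CPA1 of the 5 passed, with 1332 and 1741 at constant 12 °C, against 2408 and 2629.6 at constant 30 °C (-0.72 ± 0.21 SE, adjusted p = 0.0259), and this call did not hold without constant 12 °C array 1 (-0.53), constant 30 °C array 1 (-0.79) or constant 30 °C array 2 (-0.66), nor with arrays centred on their medians (-0.60). The signals of ARG1 there were 1060.3 and 1491 at constant 12 °C, against 1642 and 2226 at constant 30 °C, which did not pass (-0.60 ± 0.22 SE, adjusted p = 0.0721). For ARG4 they were 2461 and 1962 at constant 12 °C, against 1415 and 1626 at constant 30 °C, a difference of the opposite sign that did not pass either (0.54 ± 0.23 SE, adjusted p = 0.115). The cold effect was more negative in the cycle than between the constant cultures for ARG1, ARG4 and CPA1, as given with the other such genes further on.

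**Figure D2:**
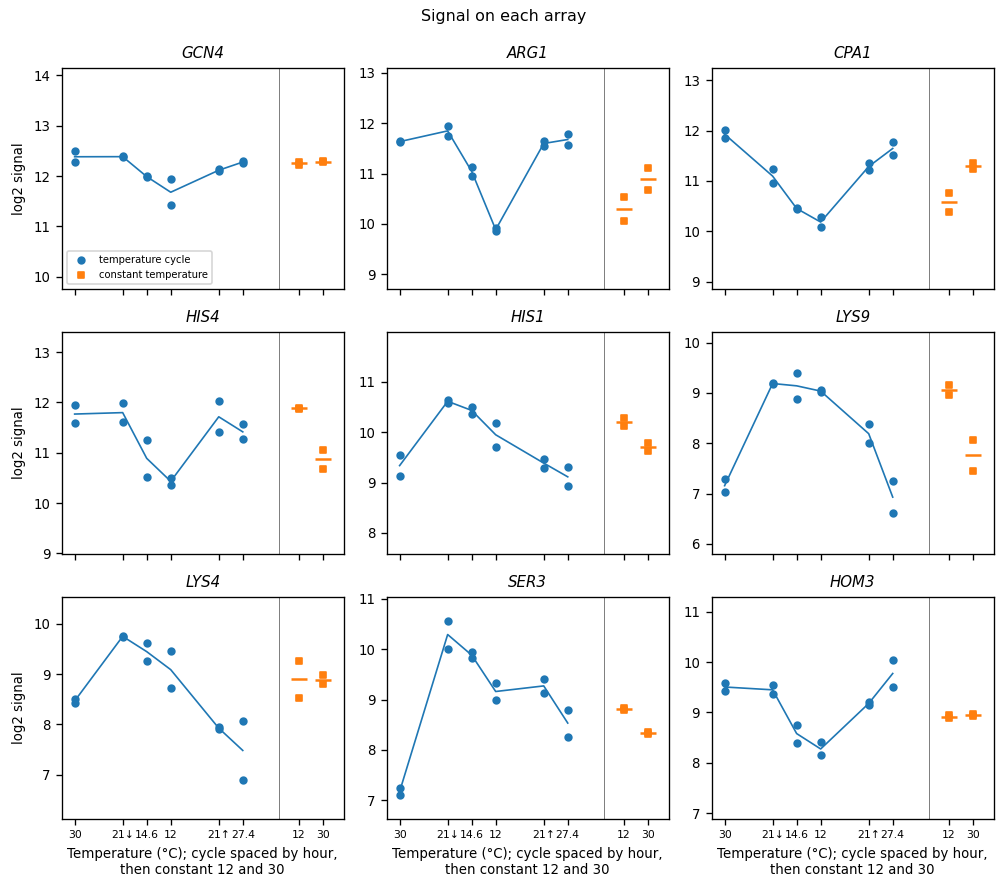
Signal on each array (log2, every panel spanning the same number of log2 units) of 9 genes over the cycle, spaced by hour (blue points; the line joins the means of 2 arrays), and in the constant 12 and 30 °C cultures (orange squares; bars are means). ARG1, CPA1, HIS4 and HOM3 dip at cycle 12 °C, whereas LYS9 and SER3 are lowest near the warm end and highest at falling 21 °C.

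Among the histidine genes, HIS4 changed in opposite directions in the constant cultures and in the cycle. HIS4 encodes an enzyme that catalyses several steps of the pathway. It read 3759 and 3779.7 at constant 12 °C, against 2121 and 1642 at constant 30 °C. Over the cycle it read 3964 and 3067 at 30 °C, 3129 and 4042 at 21 °C falling, 2442 and 1471 at 14.6 °C, 1318 and 1448 at 12 °C, 4150.4 and 2717 at 21 °C rising and 3025 and 2462 at 27.4 °C. The groups did not overlap in either comparison, as for 64.5% of all genes between the constant cultures and 61.5% in the cycle. HIS4 rose at constant 12 °C (1.01 ± 0.29 SE, adjusted p = 0.0281) and fell at cycle 12 °C (-1.34 ± 0.29 SE, adjusted p = 0.00447). The difference of these effects passed (-2.35 ± 0.41 SE, adjusted p = 0.00473) and held under each of the 18 alternatives, as the fall in the cycle did under each of 14. The rise between the constant cultures did not hold without any 1 of the 4 arrays compared (0.83 to 1.20), nor under quantile normalization (0.64). HIS4 at cycle 12 °C was also below constant 12 °C (-1.45 ± 0.29 SE, adjusted p = 0.00703), though not with only the compared groups in the fit (adjusted p = 0.0741). It had fallen at 14.6 °C against cycle 30 °C (-0.88 ± 0.29 SE, adjusted p = 0.0474), a call that did not hold without cycle 30 °C array 1 (-0.69), cycle 30 °C array 2 (-1.06) or cycle 14.6 °C array 2 (-0.51), nor under quantile normalization (-0.89) or with a signal floor of 12 (-0.88).

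HIS1, ATP phosphoribosyltransferase, catalyses the first step and followed another course over the cycle. Its signals were 558 and 749.7 at 30 °C, 1598 and 1537 at 21 °C falling, 1317 and 1452 at 14.6 °C, 1169 and 836 at 12 °C, 712 and 629.6 at 21 °C rising and 631 and 487 at 27.4 °C. They rose against cycle 30 °C at falling 21 °C (1.28 ± 0.23 SE, adjusted p = 0.00554) and at 14.6 °C (1.10 ± 0.23 SE, adjusted p = 0.00548). Neither of these calls held with only the compared groups in the fit (adjusted p = 0.104 and 0.09). At rising 21 °C HIS1 was lower than at falling 21 °C (-1.23 ± 0.23 SE, adjusted p = 0.00153), a call that held under each of the 14 alternatives. HIS7, imidazole glycerol phosphate synthase, read 266 and 125 at rising 21 °C, against 443 and 604 at falling 21 °C (-1.5 ± 0.42 SE, adjusted p = 0.0147). These arrays did not overlap, as for 74.2% of all genes. The HIS7 call did not hold without falling 21 °C array 2 (-1.28) or rising 21 °C array 2 (-0.96). HIS5, histidinol-phosphate aminotransferase, passed in none of the pairwise comparisons, and at cycle 12 °C against cycle 30 °C its change was -0.40 ± 0.27 SE (adjusted p = 0.285).

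HIS3, imidazoleglycerol-phosphate dehydratase, has 2 probe sets that disagreed. The brighter one, which stood for the gene, read 265 and 236 at cycle 12 °C, against 404 and 437 at cycle 30 °C (-0.75 ± 0.25 SE, adjusted p = 0.0358). The other probe set changed by 0.86 in log2 in the same comparison, so that the mean of both gave 0.055 (adjusted p = 0.878). The HIS3 call also did not hold without any 1 of the 4 arrays compared (-0.83 to -0.67). HIS3 in the cycle is therefore uncertain.

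In the branched-chain pathway the isoenzymes LEU4 and LEU9, which make alpha-isopropylmalate, the first intermediate specific to leucine, took different courses. LEU4 read 647 and 1979 at 30 °C, 2517 and 2749.9 at 21 °C falling, 1898 and 1424 at 14.6 °C, 1026 and 750.3 at 12 °C, 2857 and 3641 at 21 °C rising and 1941 and 1415 at 27.4 °C. LEU9 read 142 and 96.2 at 30 °C, 154 and 152 at 21 °C falling, 168 and 153 at 14.6 °C, 210.0 and 223 at 12 °C, 70.9 and 51.5 at 21 °C rising and 80.9 and 157 at 27.4 °C. LEU4 was highest at rising 21 °C and LEU9 lowest there, with no overlap with cycle 30 °C in LEU4 or in LEU9. Against cycle 30 °C, LEU4 rose at rising 21 °C (1.51 ± 0.46 SE, adjusted p = 0.0353) while LEU9 fell (-0.95 ± 0.31 SE, adjusted p = 0.0479). The LEU4 call did not hold without cycle 30 °C array 1 (0.70), rising 21 °C array 1 (1.69) or rising 21 °C array 2 (1.34), nor with a signal floor of 12 (1.51), and the LEU9 call did not hold without cycle 30 °C array 1 (-0.67), rising 21 °C array 1 (-1.18) or rising 21 °C array 2 (-0.72), nor under quantile normalization (-0.81), with arrays centred on their medians (-0.89), with a signal floor of 12 (-0.95) or with the replicate number as a block (-0.95). At cycle 12 °C the opposite order was seen: LEU9 rose against cycle 30 °C (0.89 ± 0.31 SE, adjusted p = 0.0467), and LEU4 changed by -0.37 without passing (adjusted p = 0.579). The LEU9 call did not hold without cycle 30 °C array 2 (0.61), cycle 12 °C array 1 (0.93) or cycle 12 °C array 2 (0.84), nor under quantile normalization (0.85), with arrays centred on their medians (0.84), with a signal floor of 12 (0.89) or with the replicate number as a block (0.89). LEU9 also fell at rising against falling 21 °C (-1.34 ± 0.31 SE, adjusted p = 0.00567), though not without rising 21 °C array 2 (-1.11).

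Between the constant cultures, 2 of the 9 branched-chain genes rose in the cold and none fell, against 22.2% of all genes called (9.97% higher and 12.2% lower). The pathway median was 0.31, against -0.01 over all genes. LEU9 read 208 and 187 at constant 12 °C, against 72.5 and 99.5 at constant 30 °C (1.22 ± 0.31 SE, adjusted p = 0.0171). BAT1, the mitochondrial branched-chain aminotransferase, read 1089 and 1450.2 at constant 12 °C, against 609.8 and 683 at constant 30 °C (0.96 ± 0.29 SE, adjusted p = 0.0331). The groups did not overlap for either gene, as for 64.5% of all genes. The LEU9 call did not hold without constant 12 °C array 1 (1.14) or constant 30 °C array 1 (0.99), and the BAT1 call did not hold without any 1 of the 4 arrays compared (0.76 to 1.17), nor under quantile normalization (0.81). LEU4 read 2074 and 3940.1 at constant 12 °C, against 1665 and 1210.2 at constant 30 °C, with a wide spread at both temperatures (log2 change 1.01, adjusted p = 0.136).

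At cycle 12 °C against constant 12 °C, 6 of the 45 synthesis genes changed, against 18.2% of all genes called (9.35% lower). Of the 6, 3 belonged to this pathway, and all 3 were lower. LEU4 read 1026 and 750.3 at cycle 12 °C, against 2074 and 3940.1 at constant 12 °C (-1.70 ± 0.46 SE, adjusted p = 0.025). ILV2, the catalytic subunit of acetolactate synthase, read 519.9 and 614 at cycle 12 °C, against 1075 and 1169 at constant 12 °C (-0.99 ± 0.27 SE, adjusted p = 0.0272). LEU2, beta-isopropylmalate dehydrogenase, read 1145 and 1491 at cycle 12 °C, against 2093 and 2829 at constant 12 °C (-0.90 ± 0.24 SE, adjusted p = 0.0238). The arrays did not overlap for LEU4, ILV2 or LEU2, as for 59.4% of all genes. LEU2 also fell within the cycle at 12 °C, against 2501 and 2333 at cycle 30 °C (-0.89 ± 0.24 SE, adjusted p = 0.0138), and its 3 probe sets all changed downwards there (-0.89, -1.23 and -1.32) while differing in sign between the constant cultures. These calls did not hold in every fit: LEU4 without constant 12 °C array 2 (-1.24), cycle 12 °C array 1 (-1.93) or cycle 12 °C array 2 (-1.48); ILV2 without any 1 of the 4 arrays compared (-1.11 to -0.87); LEU2 against constant 12 °C without constant 12 °C array 2 (-0.68) or cycle 12 °C array 1 (-0.71), nor under quantile normalization (-0.62). The LEU2 call within the cycle did not hold without cycle 30 °C array 1 (-0.84) or cycle 12 °C array 1 (-0.70).

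ILV1, threonine deaminase, which commits threonine to isoleucine, fell at rising against falling 21 °C, with 392 and 349.8 at rising 21 °C, against 1141 and 793 at falling 21 °C (-1.36 ± 0.42 SE, adjusted p = 0.0254). The ILV1 call did not hold without falling 21 °C array 1 (-1.10), rising 21 °C array 1 (-1.44) or rising 21 °C array 2 (-1.28). LEU1, ILV3 and ILV5 passed in none of the pairwise comparisons, with cycle cold effects of -0.10, -0.25 and -0.97 in log2.

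In the lysine pathway the genes that passed as higher at constant 12 °C act at its last steps. LYS2, alpha-aminoadipate reductase, read 851 and 1171 at constant 12 °C, against 354 and 289 at constant 30 °C (1.64 ± 0.41 SE, adjusted p = 0.0148). LYS9, the saccharopine dehydrogenase that joins glutamate to the carbon chain, read 567 and 500.3 at constant 12 °C, against 175 and 269 at constant 30 °C (1.29 ± 0.29 SE, adjusted p = 0.008). LYS1, the saccharopine dehydrogenase that releases lysine, read 671 and 978 at constant 12 °C, against 272 and 415 at constant 30 °C (1.27 ± 0.27 SE, adjusted p = 0.00667). The constant groups did not overlap for LYS2, LYS9 or LYS1, as for 64.5% of all genes. The other 4 genes, which act earlier, did not pass: LYS20, LYS21, LYS4 and LYS12 changed by 0.19, -0.23, 0.01 and 0.75. LYS12 read 1057 to 1095 at constant 12 °C and 615 to 664 at constant 30 °C. With limma 4 of the 7 lysine genes had an unadjusted p under 0.05. Whether late steps differ from earlier ones was not tested. The LYS2 call did not hold without constant 12 °C array 2 (1.41), constant 30 °C array 1 (1.79) or constant 30 °C array 2 (1.49), that of LYS9 did not hold without constant 12 °C array 1 (1.20) or constant 30 °C array 1 (0.98), and that of LYS1 did not hold without constant 12 °C array 2 (1.0) or constant 30 °C array 1 (0.97).

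Within the cycle LYS9 was the member of the pathway that rose at 12 °C. Its signals were 156 and 130.0 at 30 °C, 584 and 581 at 21 °C falling, 472 and 675 at 14.6 °C, 517 and 532 at 12 °C, 334 and 255 at 21 °C rising and 97.5 and 152 at 27.4 °C. The pairs at falling 21, 14.6 and 12 °C lay above all other cycle arrays, and LYS9 was 3.68-fold higher at 12 °C than at 30 °C (1.88 ± 0.29 SE, adjusted p = 0.000435), a call that held under each of the 14 alternatives. It was above cycle 30 °C by similar amounts at falling 21 °C (2.03 ± 0.29 SE, adjusted p = 0.00143) and at 14.6 °C (1.98 ± 0.29 SE, adjusted p = 0.000571), and was still above it at rising 21 °C (1.03 ± 0.29 SE, adjusted p = 0.0236), though not without any 1 of the 4 arrays compared (0.84 to 1.23). The calls at falling 21 °C and 14.6 °C did not hold with only the compared groups in the fit (adjusted p = 0.0802 and 0.0516). LYS4, homoaconitase, read 342 and 365 at 30 °C, 852 and 868 at 21 °C falling, 789 and 616 at 14.6 °C, 699 and 423 at 12 °C, 246 and 240.3 at 21 °C rising and 268 and 119 at 27.4 °C. It was highest at falling 21 °C, where it passed against cycle 30 °C (1.28 ± 0.37 SE, adjusted p = 0.0437), though not without any 1 of the 4 arrays compared (1.24 to 1.33), nor with a signal floor of 12 (1.28) or with all 17 arrays (1.28). At rising 21 °C LYS4 was 3.54-fold lower than at falling 21 °C (-1.82 ± 0.37 SE, adjusted p = 0.00234), and this held under each of the 14 alternatives. LYS12, homoisocitrate dehydrogenase, fell in that comparison too, with 514 and 412 at rising 21 °C, against 1242 and 873 at falling 21 °C (-1.18 ± 0.28 SE, adjusted p = 0.00616), though not without falling 21 °C array 1 (-0.92) or rising 21 °C array 2 (-1.02). So did LYS9 (-1.0 ± 0.29 SE, adjusted p = 0.0176), though not without falling 21 °C array 1 (-0.99), falling 21 °C array 2 (-1.0) or rising 21 °C array 2 (-0.80).

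LYS2 did not follow LYS9 in the cycle. It read 405 and 256 at cycle 12 °C, against 292 and 581 at cycle 30 °C, which overlapped and did not pass (-0.35 ± 0.41 SE, adjusted p = 0.543). In the cycle at 12 °C it was below constant 12 °C (-1.63 ± 0.41 SE, adjusted p = 0.0187), though not without constant 12 °C array 2 (-1.40) or cycle 12 °C array 2 (-1.30). The homocitrate synthases LYS20 and LYS21, which catalyse the first step, passed in none of the pairwise comparisons. LYS20 read 3055 and 4117 at constant 12 °C, against 2574 and 3753 at constant 30 °C, and over the cycle 3512 and 3873 at 30 °C, 4695 and 5140.2 at 21 °C falling, 3416 and 3592 at 14.6 °C, 3077 and 3395 at 12 °C, 5922 and 4348 at 21 °C rising and 3189 and 3686 at 27.4 °C. LYS21 read 1399 and 1765 at constant 12 °C, against 1625 and 2088 at constant 30 °C, and over the cycle 1834 and 1837 at 30 °C, 2386 and 2877 at 21 °C falling, 1863 and 2029 at 14.6 °C, 1634 and 1647 at 12 °C, 2242 and 1931 at 21 °C rising and 1388 and 1280.0 at 27.4 °C. Their coding sequences are close copies, and a probe set annotated to both was not used.

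Genes of the aromatic pathway rose at constant 12 °C: of 8 genes, 4 rose and none fell, against 22.2% of all genes called (9.97% higher), and the pathway median was 0.94, against -0.01 over all genes. TRP4, anthranilate phosphoribosyltransferase of the tryptophan branch, read 298 and 465 at constant 12 °C, against 108 and 261 at constant 30 °C (1.15 ± 0.37 SE, adjusted p = 0.0463). ARO2, chorismate synthase, which closes the shared part of the pathway, read 1813 and 2099 at constant 12 °C, against 718 and 1081 at constant 30 °C (1.15 ± 0.31 SE, adjusted p = 0.022). The isoenzymes ARO3, which phenylalanine inhibits, and ARO4, which tyrosine inhibits, make the first intermediate. ARO4 read 1306 and 1347 at constant 12 °C, against 599 and 694 at constant 30 °C (1.04 ± 0.34 SE, adjusted p = 0.0444). ARO3 read 155 and 201 at constant 12 °C, against 93.1 and 107 at constant 30 °C (0.82 ± 0.24 SE, adjusted p = 0.0307). All of these pairs were separate, as for 64.5% of all genes. ARO1, the enzyme of the middle steps, had a change of 1.31 that did not pass (adjusted p = 0.0956). None of the 4 calls held in every fit: TRP4 did not pass without constant 12 °C array 1 (1.47), constant 12 °C array 2 (0.83) or constant 30 °C array 1 (0.51), nor under quantile normalization (1.17) or with a signal floor of 12 (1.15). ARO2 did not pass without constant 12 °C array 1 (1.25), constant 12 °C array 2 (1.04) or constant 30 °C array 1 (0.85). ARO4 did not pass without any 1 of the 4 arrays compared (0.94 to 1.15), nor under quantile normalization (0.90) or with a signal floor of 12 (1.04). ARO3 did not pass without any 1 of the 4 arrays compared (0.63 to 1.01), nor with all 17 arrays (0.82).

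No aromatic gene passed at cycle 12 °C against cycle 30 °C, where the pathway median was -0.16. At rising against falling 21 °C, 2 of the 8 fell and none rose, against 33.9% of all genes called (15.2% higher and 18.7% lower). ARO4 read 981 and 1106 at 30 °C, 959.6 and 1429 at 21 °C falling, 1188 and 1128 at 14.6 °C, 1128 and 755 at 12 °C, 581 and 336 at 21 °C rising and 869 and 488 at 27.4 °C. ARO3 read 187 and 170.3 at 30 °C, 188 and 190.1 at 21 °C falling, 181 and 204 at 14.6 °C, 165 and 163 at 12 °C, 243 and 214 at 21 °C rising and 170.1 and 103 at 27.4 °C. ARO4 had its lowest mean at rising 21 °C, where ARO3 lay above all other cycle arrays. ARO4 fell at rising against falling 21 °C (-1.41 ± 0.34 SE, adjusted p = 0.00649) and against cycle 30 °C (-1.24 ± 0.34 SE, adjusted p = 0.0215). ARO2 read 753 and 718 at rising 21 °C, against 1408 and 2048 at falling 21 °C (-1.21 ± 0.31 SE, adjusted p = 0.0105), and was also below cycle 30 °C (-0.97, adjusted p = 0.0458). The ARO4 calls did not hold without falling 21 °C array 2 (-1.12) or rising 21 °C array 2 (-1.01) against falling 21 °C, and without cycle 30 °C array 1 (-1.32), cycle 30 °C array 2 (-1.15) or rising 21 °C array 2 (-0.84) against cycle 30 °C. Those of ARO2 did not hold without falling 21 °C array 2 (-0.94) or rising 21 °C array 2 (-1.17) against falling 21 °C, and without any 1 of the 4 arrays compared (-1.0 to -0.93), nor with arrays centred on their medians (-0.90) or with a signal floor of 12 (-0.97) against cycle 30 °C. TRP2, TRP3 and TRP5, further steps to tryptophan, passed in none of the pairwise comparisons.

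The asparagine synthetases ASN1 and ASN2 carry out the same reaction. ASN2 rose in the cold between the constant cultures, and ASN1 fell in the cold within the cycle. ASN2 read 777 and 788 at constant 12 °C, against 300.1 and 247 at constant 30 °C (1.52 ± 0.32 SE, adjusted p = 0.00639). ASN1 read 764 and 765 at constant 12 °C, against 1189 and 1239 at constant 30 °C, which did not pass (-0.67 ± 0.33 SE, adjusted p = 0.163). Over the cycle ASN1 read 1505 and 914 at 30 °C, 1260.3 and 1869 at 21 °C falling, 954 and 515 at 14.6 °C, 427 and 463 at 12 °C, 683 and 942 at 21 °C rising and 1222 and 1057 at 27.4 °C. ASN2 read 478 and 457 at 30 °C, 616 and 859 at 21 °C falling, 842 and 447 at 14.6 °C, 898 and 760.3 at 12 °C, 388 and 365 at 21 °C rising and 444 and 771 at 27.4 °C. ASN1 lay below all other cycle arrays at 12 °C, where ASN2 had its highest mean. ASN1 fell at cycle 12 °C (-1.40 ± 0.33 SE, adjusted p = 0.0063), and the change of ASN2 did not pass (0.82 ± 0.32 SE, adjusted p = 0.0703). At rising against falling 21 °C both fell (ASN1 -0.94, ASN2 -0.95). The ASN2 call between the constant cultures did not hold without constant 30 °C array 2 (1.38), and that of ASN1 in the cycle did not hold without cycle 30 °C array 1 (-1.04). At 21 °C the call of ASN1 did not hold without falling 21 °C array 2 (-0.65), rising 21 °C array 1 (-0.70) or rising 21 °C array 2 (-1.17), nor with arrays centred on their medians (-0.82), with a signal floor of 12 (-0.94) or with the replicate number as a block (-0.94), and that of ASN2 did not hold without any 1 of the 4 arrays compared (-1.19 to -0.71), nor with arrays centred on their medians (-0.83).

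Serine synthesis from 3-phosphoglycerate gave the change of the largest size among the 45 genes. SER3 and SER33 encode the dehydrogenase of the first step. SER3 read 152 and 138 at 30 °C, 1035 and 1522 at 21 °C falling, 981 and 911 at 14.6 °C, 641 and 512 at 12 °C, 559 and 685 at 21 °C rising and 446 and 308 at 27.4 °C. SER33 read 414 and 325 at 30 °C, 632 and 431 at 21 °C falling, 494 and 547 at 14.6 °C, 374 and 454 at 12 °C, 536 and 499 at 21 °C rising and 432 and 563 at 27.4 °C. SER3 was lowest at cycle 30 °C, below every other array, and highest at falling 21 °C, while SER33 stayed within a narrower range. SER3 was 8.69-fold higher at falling 21 °C than at cycle 30 °C (3.12 ± 0.25 SE, adjusted p = 4.01e-05), and remained higher at 14.6 °C (2.71 ± 0.25 SE, adjusted p = 3.75e-05), at 12 °C (1.99 ± 0.25 SE, adjusted p = 0.00012) and at rising 21 °C (2.10 ± 0.25 SE, adjusted p = 0.00018). The calls at 14.6 °C, 12 °C and rising 21 °C held under each of the 14 alternatives. That at falling 21 °C ended where only those 2 groups were in the fit. SER3 was lower at rising than at falling 21 °C (-1.02 ± 0.25 SE, adjusted p = 0.00682), though not without falling 21 °C array 2 (-0.74) or rising 21 °C array 1 (-0.87).

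SER3 was also the only one of the 45 genes that passed between cycle 30 °C and constant 30 °C, against 1.20% of all genes called (0.866% lower). Most of the 45 changed the other way there, 34 upwards and 11 downwards, with a median of 0.35, against -0.04 over all genes. All 5 arginine, all 8 aromatic and all 5 homoserine and threonine genes were higher at cycle 30 °C (medians 0.63, 0.69 and 0.35). With limma 10 of the 45 had an unadjusted p under 0.05, against 651 of all 5656 genes. SER3 read 152 and 138 at cycle 30 °C, against 318 and 329 at constant 30 °C (-1.16 ± 0.25 SE, adjusted p = 0.0458). This call did not hold without any 1 of the 4 arrays compared (-1.23 to -1.09), nor with arrays centred on their medians (-1.07) or with the replicate number as a block (-1.16). The constant cultures at 12 °C read 458 and 444, and the change between the constant temperatures did not pass (0.48 ± 0.25 SE, adjusted p = 0.181). For SER33 the constant values were 457 and 469.7 at constant 12 °C, against 384 and 388 at constant 30 °C (0.26 ± 0.23 SE, adjusted p = 0.453). SER1, phosphoserine aminotransferase, read 579 and 299.8 at cycle 12 °C, against 794 and 1119.7 at cycle 30 °C, and fell (-1.18 ± 0.38 SE, adjusted p = 0.0328). The SER1 call did not hold without cycle 30 °C array 2 (-0.93) or cycle 12 °C array 2 (-0.70).

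The pairs of isoenzymes were compared as the log2 ratio of their signals on the same array, which shows unequal change and not which gene moved. ASN1 over ASN2 fell by similar amounts at constant 12 °C against constant 30 °C (-2.19 ± 0.33 SE, adjusted p = 0.000945) and at cycle 12 °C against cycle 30 °C (-2.22 ± 0.33 SE, adjusted p = 0.000383). Each passed under all 8 alternatives tried. For the ratios in comparisons other than these 2 no alternatives were tried. SER3 over SER33 rose in the cycle at 12 °C (1.82 ± 0.37 SE, adjusted p = 0.003) and at falling 21 °C (2.61 ± 0.37 SE, adjusted p = 0.00158), each against cycle 30 °C. Its change between the constant cultures did not pass (0.22 ± 0.37 SE, adjusted p = 0.724), and neither did the difference of both cold effects (1.60 ± 0.53 SE, adjusted p = 0.0685). ARO3 over ARO4 rose at rising against falling 21 °C (1.68 ± 0.28 SE, adjusted p = 0.00071). LEU4 over LEU9 rose at rising 21 °C against cycle 30 °C (2.46 ± 0.66 SE, adjusted p = 0.0204). Its change at cycle 12 °C did not pass (-1.25 ± 0.66 SE, adjusted p = 0.169), but did without cycle 30 °C array 1 (-2.34, adjusted p = 0.0163); LEU4 had read 647 and 1979 on the cycle 30 °C arrays. LYS20 over LYS21 did not pass in any of the comparisons, the constant cultures included (0.42 ± 0.19 SE, adjusted p = 0.138). Whether the probe sets of such close paralogs read only their own gene was not tested.

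**Figure D3:**
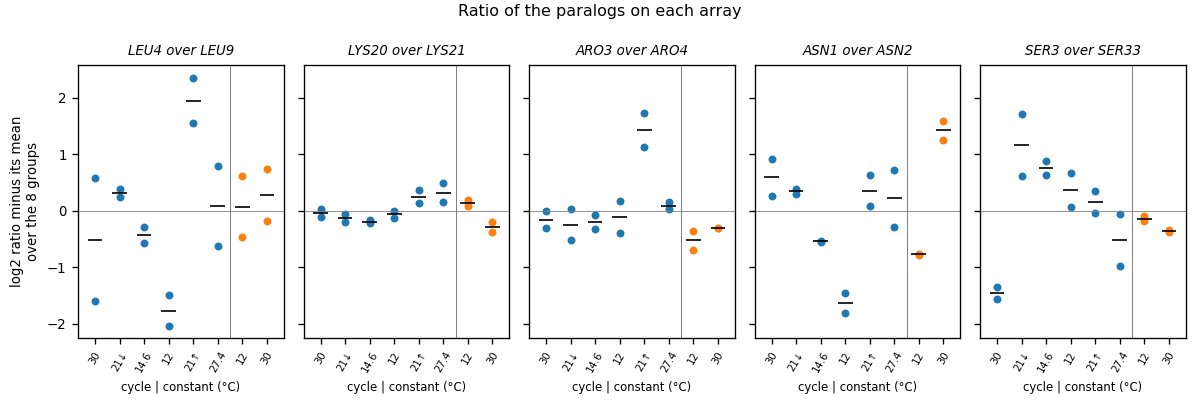
Log2 ratio of the signals of 5 isoenzyme pairs on each array, minus its mean over the 8 groups, by group (blue, cycle in its order; orange, constant 12 then 30 °C; bars are means of 2 arrays). ASN1 over ASN2 is lowest at cycle 12 °C and highest at constant 30 °C, SER3 over SER33 lowest at cycle 30 °C, and LYS20 over LYS21 varies least.

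Of the 5 homoserine and threonine genes, HOM3 and THR1 changed in pairwise comparisons. HOM3, aspartate kinase, the first step, read 765 and 691 at 30 °C, 658 and 743 at 21 °C falling, 433 and 338 at 14.6 °C, 339 and 283 at 12 °C, 589.7 and 569.5 at 21 °C rising and 728 and 1053 at 27.4 °C. It had its lowest mean at 12 °C, and fell against cycle 30 °C (-1.23 ± 0.22 SE, adjusted p = 0.00127) under each of the 14 alternatives, and at 14.6 °C (-0.93 ± 0.22 SE, adjusted p = 0.00967), though not without cycle 30 °C array 1 (-0.85) or cycle 14.6 °C array 2 (-0.75). The constant cultures hardly differed in HOM3, with 472 and 494 at constant 12 °C, against 488 and 500.0 at constant 30 °C (-0.03 ± 0.22 SE, adjusted p = 0.938). THR1, homoserine kinase, followed another course and read 1103 and 1071 at 30 °C, 1125 and 1085 at 21 °C falling, 1208 and 1605 at 14.6 °C, 1099 and 892 at 12 °C, 403 and 504 at 21 °C rising and 686 and 875 at 27.4 °C. THR1 lay below all other cycle arrays at rising 21 °C, where it fell against falling 21 °C (-1.29 ± 0.29 SE, adjusted p = 0.00493), under each of the 14 alternatives, and against cycle 30 °C (-1.27 ± 0.29 SE, adjusted p = 0.00967), though not there without rising 21 °C array 1 (-1.11). Between the constant cultures THR1 fell, with 367 and 629 at constant 12 °C, against 732 and 1102 at constant 30 °C (-0.90 ± 0.29 SE, adjusted p = 0.0463), though not without constant 12 °C array 1 (-0.51), constant 30 °C array 1 (-1.20) or constant 30 °C array 2 (-0.61), nor with arrays centred on their medians (-0.78) or with a signal floor of 12 (-0.90). In the cycle at 12 °C it was above constant 12 °C (1.04 ± 0.29 SE, adjusted p = 0.0305), though not without constant 12 °C array 1 (0.65), cycle 12 °C array 1 (0.89) or cycle 12 °C array 2 (1.19). THR4 and HOM6 passed in none of the pairwise comparisons, nor did HOM2, aspartate semialdehyde dehydrogenase, which read 574 and 496 at cycle 12 °C, against 735 and 739 at cycle 30 °C.

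The study asked how far the response to the cycle follows from the steady states, and the cold effect was therefore compared directly between both regimes, as the cycle change minus the constant change. This difference passed for 9 of the 45 genes, 1 higher and 8 lower, against 12.9% of all genes called (6.56% higher and 6.33% lower). The median difference was -0.91 for the 45 genes and 0.08 for all genes. The difference takes in the 30 °C groups too, where the median change of cycle over constant was 0.35 for the 45 genes and -0.04 for all genes. HIS4 (-2.35 ± 0.41 SE, adjusted p = 0.00473) and SER3 (1.51 ± 0.35 SE, adjusted p = 0.0156) differed in opposite directions. LYS2 followed (-1.99 ± 0.58 SE, adjusted p = 0.0431), where the constant cultures had a rise and the cycle none that passed. HIS3 (-1.48), ARG4 (-1.25), HOM3 (-1.20), ARG1 (-1.14), CPA1 (-1.02) and HOM2 (-1.01) were also more negative in the cycle. HIS3 is uncertain here too, since with its probe sets averaged the difference did not pass (-0.86, adjusted p = 0.0871). The difference of HOM2 passed in 5 of 18 alternatives. ARO1 had a difference of -2.35 that did not pass (adjusted p = 0.0589). Centring the arrays gave 1 higher and 12 lower, and quantile normalization 1 and 3. HIS4 alone of the 9 held under each of the 18 alternatives, and SER3 did not hold without constant 30 °C array 2 (1.48) or cycle 12 °C array 1 (1.34). The number that passed was 5 without constant 12 °C array 1, 3 without constant 12 °C array 2, 2 without constant 30 °C array 1, 5 without constant 30 °C array 2, 5 without cycle 12 °C array 1 and 3 without cycle 12 °C array 2.

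At the same 12 °C, 1 of the 45 genes was higher and 5 were lower in the cycle than in the constant cultures, against 18.2% of all genes called (8.84% higher and 9.35% lower). The median change was -0.41 for the 45 genes and 0.01 for all genes. The 6 were THR1, higher, and LEU4, LYS2, HIS4, ILV2 and LEU2, lower, with the values above. Without constant 12 °C array 2 or cycle 12 °C array 2 the count was 2 each time, and with only these groups in the fit 0. The genes whose arrays did not overlap numbered 31 of 45 between the constant cultures (64.5% of all genes), 28 at cycle 12 against cycle 30 °C (61.5%) and 28 at cycle 12 °C against constant 12 °C (59.4%). Every one of the 45 genes that passed in these comparisons was among them, so a lack of overlap adds nothing to a call.

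**Figure D4:**
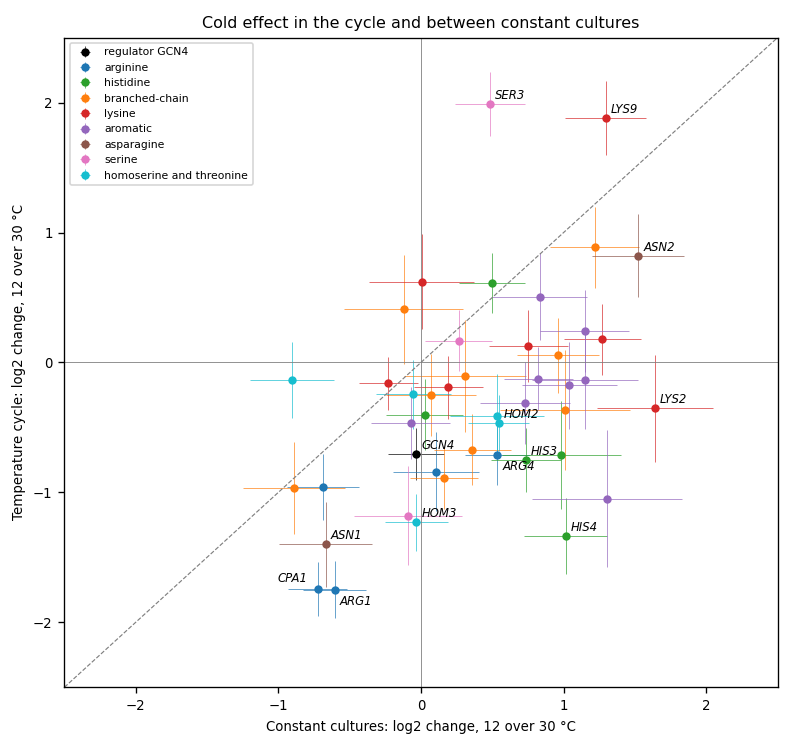
Cold effect of each of the 45 genes in the cycle (vertical axis, log2 change of cycle 12 °C over cycle 30 °C) against that between constant cultures (horizontal axis, constant 12 °C over constant 30 °C), by pathway, with SE bars. On the dashed line both effects are equal; most genes lie under it, with SER3 far above and HIS4 and LYS2 far below.

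The cycle passes 21 °C on its way down and again on its way up. At rising against falling 21 °C, 13 of the 45 genes fell and none rose, against 33.9% of all genes called (15.2% higher and 18.7% lower), with medians of -0.33 for the 45 genes and -0.04 for all genes. They came from every pathway but arginine: LYS4, LYS12 and LYS9, HIS7 and HIS1, ARO4 and ARO2, ILV1 and LEU9, ASN1 and ASN2, THR1 and SER3. The change of GCN4 did not pass (-0.27 ± 0.20 SE, adjusted p = 0.326). In 33 of the 45 genes the arrays of these points did not overlap (74.2% of all genes). HIS1, LYS4 and THR1 held under each of the 14 alternatives, while the count was 6 without falling 21 °C array 2 and 4 without rising 21 °C array 2.

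Against cycle 30 °C, 4 of the genes rose and 1 fell at falling 21 °C (11.2% of all genes called, 5.22% higher and 5.94% lower), 3 rose and 3 fell at 14.6 °C (23.9%, 11.6% and 12.3%), and 3 rose and 5 fell at rising 21 °C (21.8%, 8.80% and 13.0%). Without either falling 21 °C array 3 passed at that point. At rising 21 °C the count was 2 without cycle 30 °C array 1, 3 without rising 21 °C array 1 and 2 without rising 21 °C array 2, and with centred arrays there were 4 rises and 2 falls. None passed at 27.4 °C (0.0354%) with limma, where 3 had an unadjusted p under 0.05. These comparisons and those at 12 °C share the cycle 30 °C arrays, so that a low or high value there enters each of them. The F test over the 6 cycle points passed for 22 of the 45 genes, against 48.7% of all genes. By pathway it passed for 4 of 5 arginine genes, 2 of 5 histidine genes, 5 of 9 branched-chain genes, 4 of 7 lysine genes, 2 of 8 aromatic genes, 1 of 2 asparagine genes, 2 of 3 serine genes and 2 of 5 homoserine and threonine genes.

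The synthesis genes were mostly highest on the falling limb of the cycle. Of the 45 genes, 28 (62.2%) had their highest mean at falling 21 °C, against 12.5% of all genes, and 22 (48.9%) their lowest mean at 12 °C, against 22.6% of all genes. Both held for 14 genes. Of the 28, 14 passed the F test, and so did 11 of the 22; for the others no variation over the cycle passed. Under the other settings 19 to 31 genes were highest at falling 21 °C, the lowest count with centred arrays, and 19 to 24 were lowest at 12 °C. These counts were chosen after their values were seen. A 24-h cosine and sine passed for 19 genes, against 43.6% of all genes. The fitted peak of 18 of the 19 lay between hours 0 and 12, the falling limb, against 51.7% of the genes called overall. Some of these peaks lay close to the warmest point, with HOM3 at hour 0.24, ARG4 at 0.62, HIS4 at 0.658 and ARG1 at 0.94. HOM3 had its highest mean at 27.4 °C, where the temperature rose. Of the 19, GCN4, HIS3, HIS7, ILV1 and TRP4 did not pass the F test. The median amplitude was 0.444 in log2 for the 45 genes and 0.44 for all genes.

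**Figure D5:**
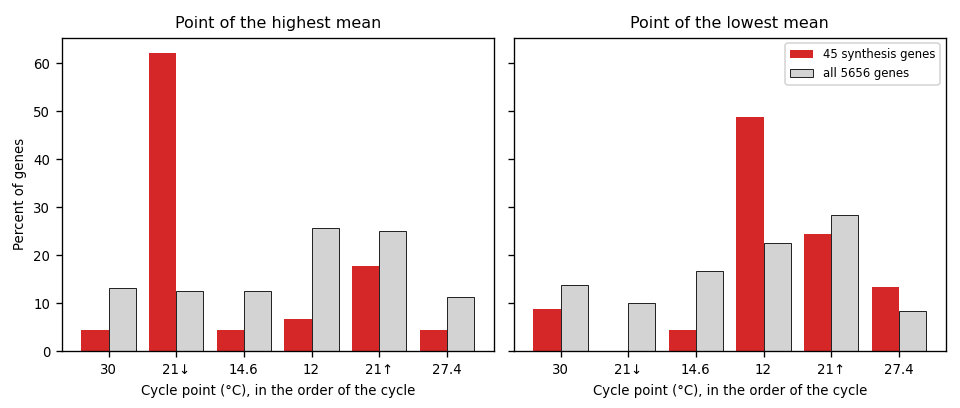
Percent of the 45 synthesis genes (red) and of all 5656 genes (grey) with their highest mean (left) or lowest mean (right) at each of the 6 cycle points, in the order of the cycle. Falling 21 °C holds the highest mean of 62.2% of the synthesis genes, and 12 °C the lowest mean of 48.9%.

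The fitted peak hours of the 19 genes differed within pathways as well as between them. CPA1 peaked at hour 23.7, shortly before the warmest point, and HOM3 at hour 0.24, shortly after it. ARG4 (0.62), HIS4 (0.658), ARG1 (0.94), GCN4 (1.44), ASN1 (1.85) and HIS3 (2.66) followed. HIS7 peaked at hour 4.5, ARO4 at 5.48, THR1 at 5.63, TRP4 at 6, and ARO2 and LYS12 both at 6.15, in the middle of the fall. ILV1 (6.78), LYS4 (7.35), HIS1 (7.78), LYS9 (10.1) and SER3 (10.4) came last. The fitted hours of the histidine genes alone thus ranged from 0.658 to 7.78. A fitted hour need not be that of the highest mean. ARG4, HIS4, ARG1, GCN4, ASN1, HIS3, HIS7, HIS1, LYS9 and SER3 all had their highest mean at falling 21 °C (hour 6). No errors were computed for the hours, and with 6 unevenly spaced points their order among close neighbours is not resolved.

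Further synthesis genes outside the 45 were counted from a list of 25 that were tested. At constant 12 °C against constant 30 °C, 2 rose and 2 fell, a smaller share than the 22.2% of all genes called: ORT1, the mitochondrial ornithine carrier, by 1.11, ARG7, which makes ornithine, by 0.97, GDH3, a glutamate dehydrogenase, by -2.71, and BAT2, the cytosolic branched-chain aminotransferase, by -2.03. The sign for BAT2 was thus opposite to that of its mitochondrial counterpart BAT1. At cycle 12 °C against cycle 30 °C none rose and 6 fell, against 32.8% of all genes called (16.5% higher and 16.3% lower). The falls were led by GDH3 (-3.66) and GLN1, glutamine synthetase (-1.24). ARG7 and ORT1 had a more negative cold effect in the cycle (-1.66 ± 0.30 SE, adjusted p = 0.00492 for ARG7 and -1.17 ± 0.32 SE, adjusted p = 0.0344 for ORT1). At rising against falling 21 °C, 2 rose and 6 fell, against 33.9% of all genes called, with SER2, the last enzyme of serine synthesis, at -2.83 and PRO1, which starts proline synthesis, at -2.13. SER2 rose with SER3 at falling 21 °C against cycle 30 °C (1.68 ± 0.30 SE, adjusted p = 0.00544).

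Of 7 regulators of single pathways, none rose and 2 fell at constant 12 °C, against 22.2% of all genes called (12.2% lower): BAS1 (-1.40) and its partner on histidine and purine genes, PHO2, which was not above background on either array at constant 12 °C and gets no size here. In the cycle none rose and 3 fell at 12 °C, against 32.8% of all genes called (16.3% lower), among them ARG80, a subunit of the arginine regulator (-1.51), and PHO2, again under background at 12 °C. Of 8 genes of amino acid breakdown, none rose and 4 fell at constant 12 °C, against the same 22.2%, led by PUT1, proline oxidase (-2.91), and CAR1, arginase (-2.34). The 4 include CHA1, which was under background on the arrays of both constant groups. None rose and 3 fell at cycle 12 °C, against 32.8%, with CAR1 at -2.56 and CAR2, ornithine transaminase, at -2.30. Arginine synthesis genes and the arginine breakdown genes CAR1 and CAR2 were both lower at cycle 12 °C than at cycle 30 °C. At rising against falling 21 °C, 3 of the 8 rose and none fell, against 33.9% (15.2% higher), with CAR2 at 1.71 and PUT2, which completes proline breakdown, at 1.53.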

How the data were processed

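Total RNA of 17 samples was hybridised to Affymetrix Yeast Genome S98 arrays, after labelling that primes at the 3′ end, per the labels' protocols. What the authors deposited is 1 linear intensity per probe set and array. The submitters' processing notes name RMA without a version, yet arrays share a trimmed mean of 240.176 to 240.241 (2% trimmed at each end), so how the values were scaled is not given in the sources used here.

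Log2 was taken after a floor of 1. Of 9335 probe sets, 6504 had a single gene, 328 several, 2443 none and 60 were controls. The brightest probe set stood for a gene, leaving 5656 genes. A set of 28 control probe sets with no target in the samples gave the background, as their percentile 95. The model was limma 3.58.1 (R 4.3.3) with 1 mean per group on 16 arrays, 8 residual and 3.89 prior degrees of freedom, empirical Bayes, two-sided tests and Benjamini-Hochberg adjustment over all genes. Hours followed from the sine formula in the labels. The script was tested on simulated data. Full values were given for GCN4, for the isoenzyme pairs and for up to 2 genes per pathway, comparison and direction. The genes, lists and tests were chosen with earlier results of these data known. Alternatives were other scaling, floor, filter, probe sets, prior, groups in the fit, threshold, replicate block, all 17 arrays and leaving out single arrays. No promoter or protein sequences were used here. The number of arrays limits the precision.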

Additional observations from a re-analysis of the deposited data

Results flagged for a closer look

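The 9 synthesis genes below stand out because their cold effect in the cycle (cycle 12 °C over cycle 30 °C) differed from that between constant cultures (constant 12 °C over constant 30 °C) by limma's test of the difference itself. All values are log2 changes. HIS4, of histidine synthesis, changed by -1.34 in the cycle and by 1.01 between the constant cultures, a difference of -2.35 that passed in 18 of 18 alternatives (-2.54 to -1.92). LYS2, of lysine synthesis, changed by -0.35 in the cycle and by 1.64 between the constant cultures, a difference of -1.99 that passed in 8 of 18 alternatives (-2.49 to -1.5). HIS3, of histidine synthesis, read by probe sets that disagree, changed by -0.75 in the cycle and by 0.73 between the constant cultures, a difference of -1.48 that passed in 12 of 18 alternatives (-1.82 to -0.86). ARG4, of arginine synthesis, changed by -0.72 in the cycle and by 0.54 between the constant cultures, a difference of -1.25 that passed in 9 of 18 alternatives (-1.42 to -0.87). HOM3, aspartate kinase, changed by -1.23 in the cycle and by -0.03 between the constant cultures, a difference of -1.20 that passed in 10 of 18 alternatives (-1.37 to -1.07). ARG1, of arginine synthesis, changed by -1.75 in the cycle and by -0.60 between the constant cultures, a difference of -1.14 that passed in 9 of 18 alternatives (-1.39 to -0.89). CPA1, of carbamoyl phosphate synthesis, changed by -1.74 in the cycle and by -0.72 between the constant cultures, a difference of -1.02 that passed in 9 of 18 alternatives (-1.21 to -0.72). HOM2, of homoserine synthesis, changed by -0.47 in the cycle and by 0.54 between the constant cultures, a difference of -1.01 that passed in 5 of 18 alternatives (-1.23 to -0.79). SER3, of serine synthesis, changed by 1.99 in the cycle and by 0.48 between the constant cultures, a difference of 1.51 that passed in 15 of 18 alternatives (1.34 to 1.67). Groups of 2 arrays are too small to single out an array.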

How the results depend on the processing

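Under the alternatives, 174 of 219 counts of synthesis genes stayed within 1.5 times the reported count, and the others follow. Fewer arrays or groups in a fit leave fewer degrees of freedom. With only the groups compared in the fit, 7 of 13 genes passed at constant 12 °C against constant 30 °C, 6 of 14 at cycle 12 °C against cycle 30 °C, 2 of 9 for the difference of both, 0 of 1 at cycle 30 °C against constant 30 °C, 0 of 6 at cycle 12 °C against constant 12 °C, and, against cycle 30 °C, 0 of 5 at falling 21 °C, 1 of 6 at 14.6 °C and 2 of 8 at rising 21 °C. At an adjusted p under 0.01, the same comparisons gave 3, 7, 1, 0, 1, 3, 5 and 2, and 7 of 13 at rising against falling 21 °C. Quantile normalization left 4 of 9 for the difference of both cold effects. Centred arrays left 0 at cycle 30 °C against constant 30 °C, a floor of 12 left 5 at rising 21 °C against cycle 30 °C, and all 17 arrays gave 1 at 27.4 °C, where the reported count was 0. The cause of these shifts was not tested.

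With 1 array left out, the counts were 1 to 7 between the constant cultures, 9 to 13 at cycle 12 °C against cycle 30 °C, 2 to 8 for the difference, 0 to 0 at cycle 30 °C against constant 30 °C, 2 to 4 at cycle 12 °C against constant 12 °C, 4 to 9 at rising against falling 21 °C, 3 to 5 at falling 21 °C, 4 to 7 at 14.6 °C and 2 to 6 at rising 21 °C against cycle 30 °C. The F test gave 15 to 27 and the cosine test 13 to 20.

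With its probe sets averaged, HIS3 changed by 0.055 (adjusted p = 0.878) at cycle 12 °C against cycle 30 °C instead of -0.75, because its other probe set changed the other way. The ratio of LYS20 to LYS21 passed between the constant cultures with a floor of 12 (0.42, adjusted p = 0.0466), and that of LEU4 to LEU9 in the cycle without cycle 30 °C array 1 (-2.34, adjusted p = 0.0163). With each array left out in turn that ratio was -2.34 to -0.17.

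Replicate numbers were not taken to pair the samples, since the labels tie none to a culture and not every pair of groups had same-numbered deviations correlated over 0.1. Of 15 pairs of cycle groups, which share cultures, 3 were over 0.1 (-0.49 to 0.52, median 0.019), and of 13 pairs with a constant group 5 were (-0.12 to 0.54, median 0.036). With the replicate number as a block, the counts were 15 between the constant cultures, 13 at cycle 12 °C against cycle 30 °C, 9 for the difference, 0 at cycle 30 °C against constant 30 °C, 6 at cycle 12 °C against constant 12 °C and 12 at rising against falling 21 °C.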
